A study of Canis lupus familiaris with 36 samples.

Results

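The miR-181 family of the dog heart was examined in 6 cardiac HSA and 6 cardiac control libraries. Its members were the rows of the count table named cfa-miR-181a, cfa-miR-181b, cfa-miR-181c and cfa-miR-181d (the prefix marks the dog and is left out below), so there were 4 of the 453 mature miRNAs listed. They were listed in 6 of the 517 entries, because miR-181a and miR-181b each have 2 precursors, and the entry with the highest total was used for each name. All 4 members had reads in all 12 libraries and passed the filter on low counts, as did 225 of the 453 miRNAs.

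MiR-181 molecules are small RNAs that repress messenger RNAs through a seed sequence shared by the family. MiR-181a is best known from lymphocytes, where it sets the sensitivity of the antigen receptor. In endothelium, miR-181b limits inflammatory NF-kB signaling by repressing an importin, and miR-181a represses PROX1, a factor of lymphatic identity. In heart muscle, miR-181c enters mitochondria and represses a subunit of cytochrome c oxidase. The precursors lie in pairs, and in the RefSeq gene table of the dog assembly UU_Cfam_GSD_1.0 the miRNA gene nearest to each miR-181a precursor was a miR-181b precursor, while those of miR-181c and miR-181d were nearest to each other. One of the miR-181a and miR-181b pairs lay inside the span of NR6A1, and the next miRNA gene beside miR-181c and miR-181d was miR-23a.

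Each library was made from formalin-fixed, paraffin-embedded heart of a dog with hemangiosarcoma (HSA), a tumor of endothelial cells, or of a control dog that died of a non-neoplastic cause. The labels used here name no drug, breed or age. Per the study, its HSA dogs were significantly older than its control dogs, and earlier chemotherapy did not exclude a dog. Age and any such treatment therefore cannot be told apart from HSA here. Whole tissue was sequenced, so fewer cells of a type and less RNA per cell cannot be told apart. The titles and the treatment field of the labels name opposite conditions for every cardiac library. The titles were followed, and with the treatment field every direction below would turn around. Spleen libraries, 18 of HSA and 6 of control, were not analysed here.

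After merging identical entries, control libraries held 6999830 to 11668822 counts and HSA libraries 2018959 to 8999025 counts. The files give no sequencing batch, and library names follow a different format in each group, so any batch split along the same line as HSA and control cannot be told apart from them. The muscle list (miR-1, miR-133a, miR-133b, miR-133c, miR-206, miR-208a, miR-208b and miR-499) summed to between 189921 and 271362 CPM in control. Of these, miR-133a and miR-133c had almost equal counts, with control means of 73642.9 and 73642.7 CPM. They may share reads, so every muscle sum given here may hold the same reads more than once. In HSA the muscle sum ran from 942 to 233009 CPM and was below every control library in 4 of 6. The lowest sum was that of HSA replicate 3, where the summed markers of heart muscle were far below those of every control library. MiR-126, the endothelial miRNA, had 2972 ± 649 CPM (SD, n = 6) in control and 2176 ± 1443 CPM (SD, n = 6) in HSA. CPM, unless called deposited CPM, are counts relative to the library total after edgeR's TMM scaling, which sets the libraries on the assumption that most miRNAs keep their level.

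The family was dominated by miR-181a. In the control heart, miR-181a made up 76.9% ± 1.52 (SD, n = 6) of the family's counts and miR-181b 19.0% ± 0.799 (SD, n = 6). MiR-181c and miR-181d contributed 1.96% ± 0.490 and 2.10% ± 0.420 (SD, n = 6 each). Since a read spans a whole mature miRNA, the counts were not divided by length, but adapter ligation can favor one sequence over another, so the shares describe reads. Together the members took 0.225% to 0.278% of the counts in control and 0.205% to 0.644% in HSA. The total here takes 1 entry per mature name, so it is smaller than the merged totals given above.

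In the ranking of all listed miRNAs by count, miR-181a stood between places 41 and 44 in the control libraries and miR-181b between 63 and 67. MiR-181c ranked from 120 to 136 and miR-181d had a median rank of 127.5. The order of the levels was therefore miR-181a, miR-181b and then miR-181c and miR-181d together, since the counts of miR-181c and miR-181d did not differ beyond their spread: the ratio of the former to the latter was 0.746 to 1.32 among control and 0.863 to 1.17 among HSA libraries. Their counts were also the smallest. The lowest was 100 counts of miR-181c in HSA replicate 3, with an exact 95% Poisson interval from 81.4 to 122, which covers counting error only.

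Between cardiac HSA and control, none of the 4 members was called, and with TMM scaling the group means lay close together. Calls required, in edgeR's quasi-likelihood test, that the Benjamini-Hochberg adjusted p be under 0.01 and the log2 fold change 1 or more in size. Of the 225 tested miRNAs 25.8% met this, 18.7% being higher and 7.11% lower in HSA, as 42 and 16 calls. That split was 68 and 5 with library size only and 36 and 5 with limma on deposited CPM plus 10. No member reached an unadjusted p under 0.05 either, which 53.3% of the tested miRNAs did. DESeq2 also called 0 of the 4, with 0 at an unadjusted p under 0.05.

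MiR-181a, the most abundant member, had 1592 CPM in the lowest control library, a median of 1854 CPM and 2007 CPM in the highest. In HSA it had 1149, 1634 and 2466 CPM at the same points. Of the HSA libraries, 2 lay above every control library, 3 lay below and 1 lay between. HSA over control came to -0.062 in log2 (SE 0.21, edgeR adjusted p = 0.813), and its 95% interval ran from -0.51 to 0.38, or from 0.703-fold to 1.31-fold.

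MiR-181b, the member linked to NF-kB in endothelium, ranged from 423 to 489 CPM in control with a median of 453 CPM. In HSA it ranged from 343 to 645 CPM with a median of 439 CPM. No HSA library fell inside the control range: 3 were above it and 3 below it. In log2, HSA over control was 0.053 (SE 0.18, edgeR adjusted p = 0.814), with a 95% interval from -0.34 to 0.44. Its mean in HSA, 470 ± 132.7 CPM (SD, n = 6), was thus near that of control, 453 ± 26.5 CPM (SD, n = 6), although no tumor library was inside the control range on the TMM scale; in deposited CPM 2 were.

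MiR-181c, the member found in heart mitochondria, had 35.0 CPM in the lowest control library, a median of 40.8 CPM and 68.3 CPM in the highest. In HSA the values were 31.1, 54.1 and 81.2 CPM. The groups overlapped, with 3 HSA libraries inside the control range, 2 above and 1 below. The fitted log2 difference was 0.25 (SE 0.29, edgeR adjusted p = 0.497), and the 95% interval, from -0.37 to 0.87, was the widest of the family.

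MiR-181d ranged from 41.6 to 70.1 CPM in control with a median of 47.3 CPM, and from 34.5 to 75.0 CPM in HSA with a median of 56.1 CPM. Of the HSA libraries 4 were inside the control range, 1 above and 1 below. Control replicate 1, with 70.1 CPM, stood above the other 5 control libraries, which had at most 48.8 CPM. For miR-181d the fitted difference was 0.17 in log2 (SE 0.24, edgeR adjusted p = 0.565), with a 95% interval from -0.34 to 0.69.

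**Figure D1:**
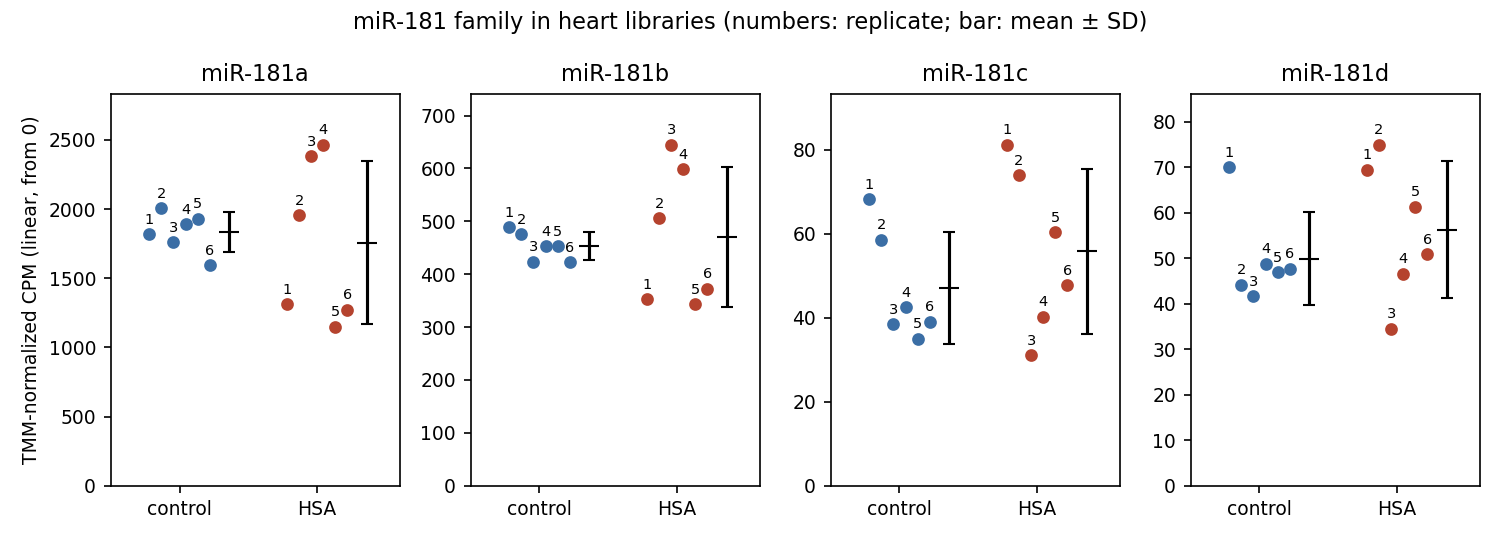
TMM-normalized CPM of each member (linear axis from 0) in the 6 control and 6 HSA libraries, each point a library labelled with its replicate number and each bar the mean ± SD. The HSA libraries spread to both sides of the control libraries for miR-181a and miR-181b, with replicates 3 and 4 above every control library in both and replicate 2 in miR-181b, while HSA replicates 1 and 2 are the highest of their group for miR-181c and miR-181d.

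All 4 intervals lay between the thresholds of -1 and 1 with TMM scaling of all 12 libraries at full depth, but not under every setting. Also with TMM, the interval of miR-181c ended at 1.03 without control replicate 1 and at 1.10 with counts thinned to the smallest library. With library size as the sole scaling, miR-181a, miR-181b, miR-181c and miR-181d had log2 fold changes of 0.56, 0.67, 0.89 and 0.82, that of miR-181a changing its sign, and the upper ends of their intervals were 1.16, 1.22, 1.69 and 1.54. No member was called at this scaling, with 3 of the 4 at an unadjusted p under 0.05. The median over all 225 tested miRNAs moved as well, from 0.34 to 0.97. Relative to that median the members were at -0.40, -0.29, -0.094 and -0.17 with TMM and at -0.41, -0.31, -0.082 and -0.15 with library size only, in the same order. Relative to the median, limma on deposited CPM plus 10 instead placed miR-181b, miR-181c and miR-181d above 0, at 0.062, 0.14 and 0.091. Without HSA replicate 3, the library with the lowest muscle sum, the log2 fold changes with TMM were -0.17, -0.060, 0.37 and 0.28.

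With TMM scaling, most other tested miRNAs had a larger absolute log2 fold change than the members. The size of a fold change depends on the scaling. The median log2 fold change over all tested miRNAs was 0.34 with TMM and 0.97 with library size only. The counts that follow were taken with TMM and were not repeated with library size only. Of the 224 other tested miRNAs, 7 had a smaller absolute log2 fold change than miR-181b and 10 a smaller one than miR-181a, while 28 were below miR-181d and 37 below miR-181c.

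**Figure D2:**
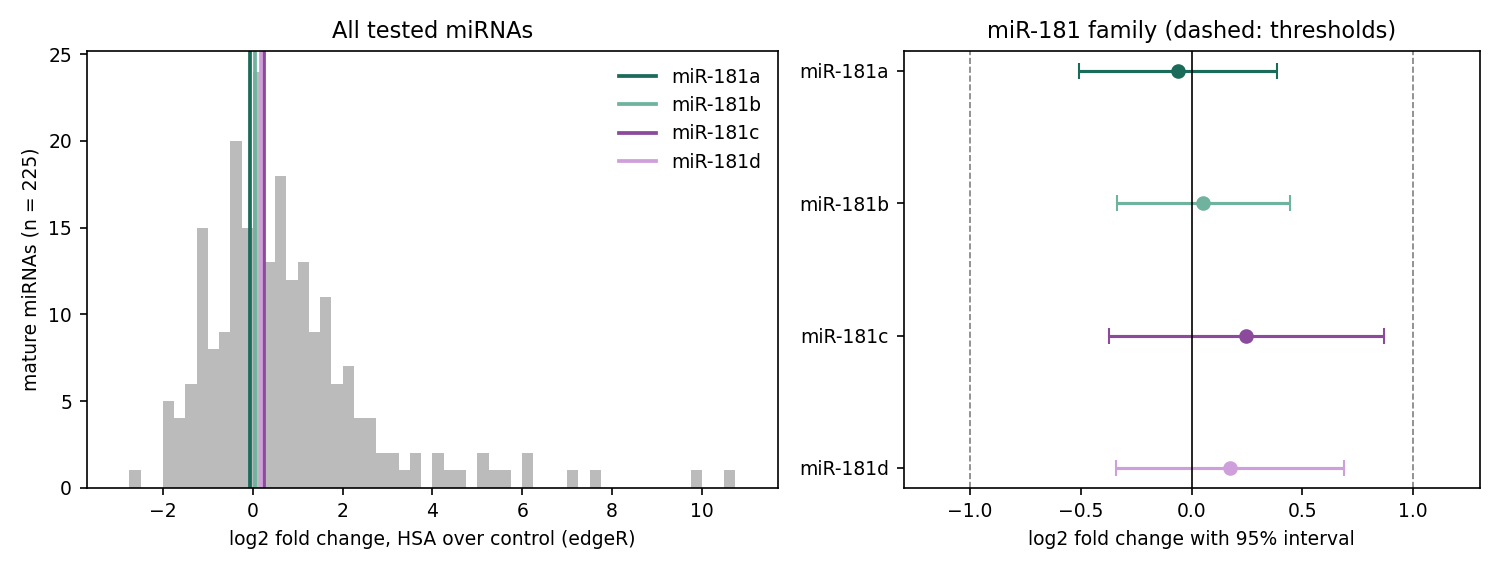
Left, the number of tested mature miRNAs by log2 fold change of HSA over control from edgeR (n = 225), with a vertical line for each miR-181 member. Right, the log2 fold change of each member with its 95% interval and dashed lines at the thresholds of -1 and 1. All 4 intervals include 0 and none reaches a threshold.

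The libraries of a group differed from one another to unequal degrees. Among the 189 tested miRNAs with a mean of at least 10 CPM, miR-181b was one of the steadiest in the control heart, with a standard deviation of 0.084 on the log2 scale, and 3 of the 188 others had a lower one. MiR-181a had 0.12, with 14 of 188 lower. MiR-181c and miR-181d varied more, with 0.38 and 0.26, and 131 and 87 of the others were steadier. The median over all of these miRNAs was 0.29 in control. In HSA it was 0.68, and the standard deviations of miR-181a, miR-181b, miR-181c and miR-181d were 0.49, 0.40, 0.53 and 0.41, all of them under that median.

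The family split into the pairs of its precursors. For each miRNA the log2 CPM was centred on its own mean over the 12 libraries, and the likeness of 2 miRNAs was taken as the root mean square difference of these profiles, a measure in which the scaling factor of a library cancels. Of the 188 miRNAs compared, the one closest to miR-181a was miR-181b, at 0.11, and closest to miR-181c was miR-181d, at 0.21. The relation held in both directions. Across the pairs the distances were larger, from 0.50 for miR-181b and miR-181d to 0.65 for miR-181a and miR-181c. MiR-181c ranked 75 among the neighbors of miR-181a and miR-181d ranked 56.

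Counting error alone would give a root mean square of 0.033 for miR-181a and miR-181b and 0.12 for miR-181c and miR-181d, against 0.091 for miR-181a and miR-181c. The mature sequences of the family are close to one another, most of all those of miR-181a and miR-181c and of miR-181b and miR-181d, and how the authors assigned reads that fit more than one is not given in the sources used here. The closest profiles were not those of the most similar sequences. The part of shared reads in these profiles was not tested.

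Outside the family, the profiles nearest to miR-181a were those of miR-16, miR-8859a and miR-193a, at 0.26, 0.28 and 0.29. For miR-181b they were miR-16, at 0.22, and miR-103 and miR-107, both at 0.24, which had almost equal counts and may share reads. MiR-34a was the nearest to both members of the other pair, at 0.37 from miR-181c and 0.33 from miR-181d. It was followed by miR-152 and miR-23a for miR-181c, both at 0.40, and by miR-8859b and miR-339 for miR-181d, at 0.33 and 0.35. None of these 10 miRNAs was called, beside 25.8% of all tested miRNAs, and their log2 fold changes ran from -0.32 for miR-193a to 0.66 for miR-152. They were chosen for their likeness to members that were not called, over the same libraries. The absence of calls therefore follows largely from that choice.

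**Figure D3:**
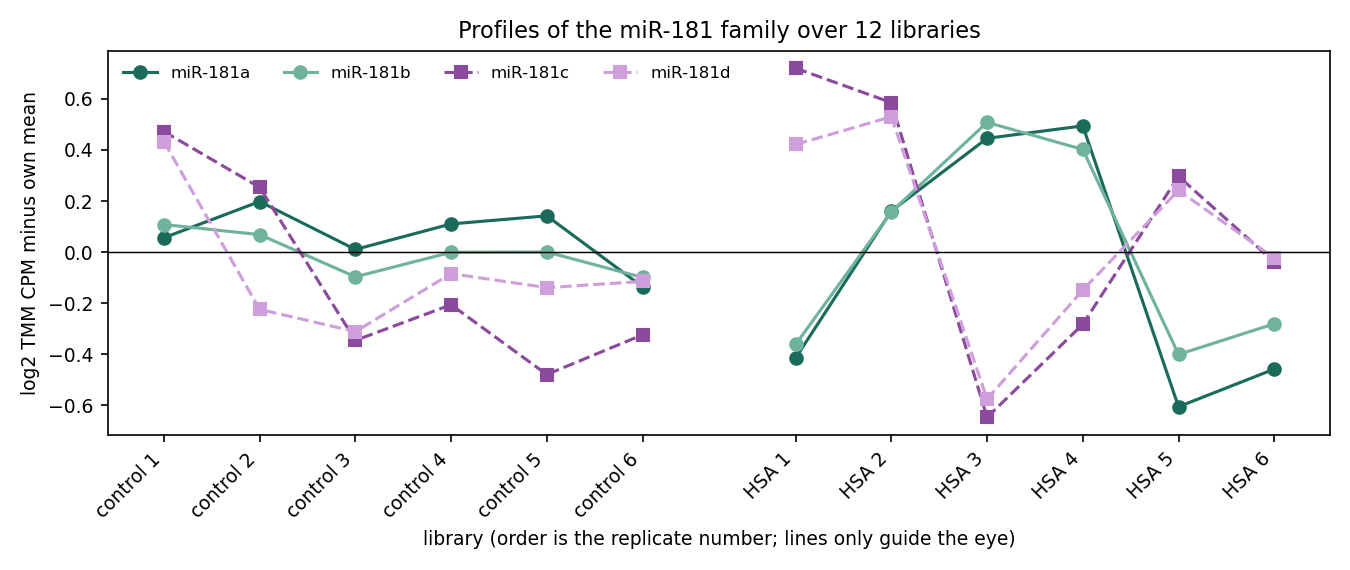
Log2 TMM CPM of each member minus its own mean over the 12 libraries, by library, with circles for miR-181a and miR-181b and squares for miR-181c and miR-181d; the lines only guide the eye. In HSA replicates 3 and 4 the circles are above 0 and the squares below, and in HSA replicates 1 and 5 the reverse.

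Within single tumor libraries the levels of the pairs stood in unequal proportion. The ratio of the summed counts of miR-181a and miR-181b to those of miR-181c and miR-181d needs no scaling between libraries. In control it was 16.7, 24.1, 27.3, 25.7, 29.1 and 23.2 in replicates 1 to 6. In HSA it was 11.0, 16.5, 46.1, 35.3, 12.3 and 16.7. Of the HSA libraries 4 were below every control library, HSA replicate 6 only marginally so, and replicates 3 and 4 were above every one of them. None was inside the control range.

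The mean log2 ratio was 4.31 ± 0.84 (SD, n = 6) in HSA and 4.58 ± 0.28 (SD, n = 6) in control. The difference of -0.28 was not called by an exact permutation test over libraries (two-sided p = 0.459, adjusted p = 0.645 over the 3 ratios tested). The variance of the log2 ratio in HSA was 8.77 times that in control, which is given as a description and was not tested. Single miRNAs in general also varied more in HSA, with a median standard deviation of 0.68 on the log2 scale against 0.29 in control. How often ratios of other miRNAs leave the control range was not examined.

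Within the pairs the log2 ratios had standard deviations of 0.11 and 0.15 in HSA, and of 0.087 and 0.29 in control. MiR-181a exceeded miR-181b by 3.72-fold to 4.26-fold in control and by 3.35-fold to 4.12-fold in HSA, and 4 HSA libraries were below all control libraries, HSA replicate 1 only marginally so. The mean log2 ratio was 0.13 lower in HSA, with -0.13 as the difference (exact permutation test, two-sided p = 0.0498, adjusted p = 0.149 over the 3 ratios), and so was not called at 0.05 after adjustment. For miR-181c to miR-181d the difference in mean log2 ratio was 0.063 (exact permutation test, two-sided p = 0.645, adjusted p = 0.645). The smallest p that this test can give with 6 libraries against 6 is 0.00216.

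**Figure D4:**
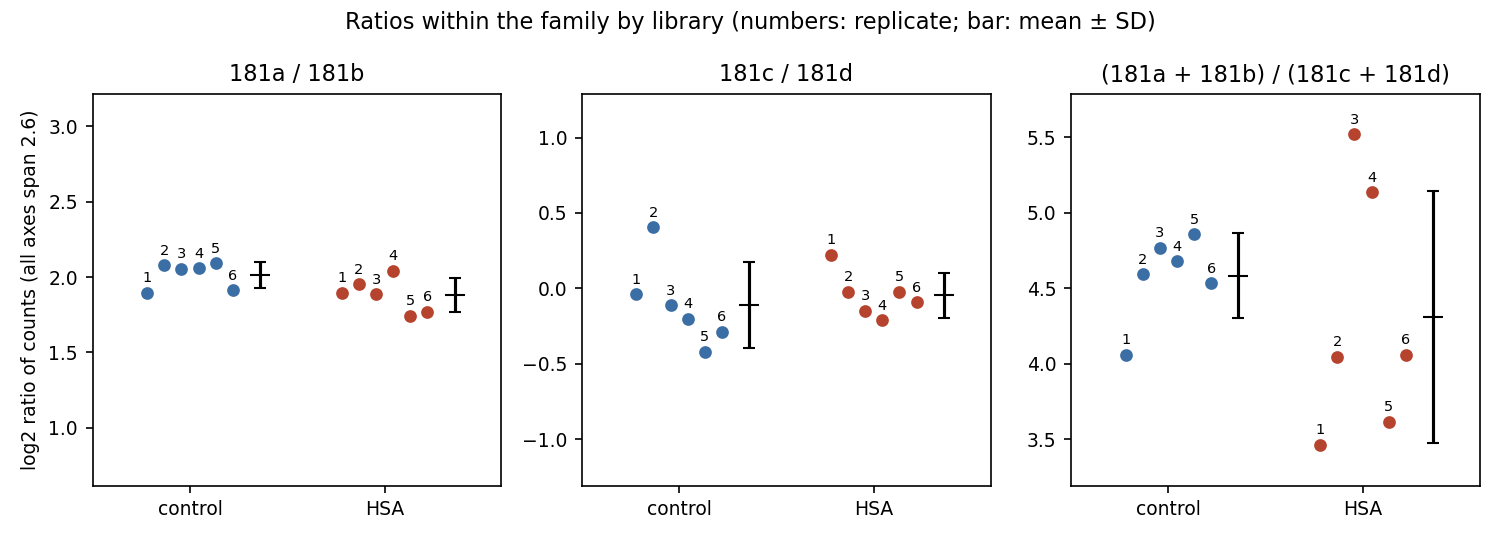
Log2 ratio of counts within each library for miR-181a to miR-181b, miR-181c to miR-181d and the sum of the first pair to the sum of the second, with points numbered by replicate and bars for mean ± SD; all axes span the same range. The HSA libraries stay close together in the ratios within a pair and spread from 3.46 to 5.52 in the third, where control spans 4.06 to 4.86.

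The 2 entries of miR-181a had identical counts in 12 of 12 libraries. For miR-181b the entry of mir-181b-2 held from 4.35% to 7.03% more counts than that of mir-181b-1, and their log2 fold changes were 0.053 and 0.058. Which of the 2 genomic copies the molecules came from was not resolved by these counts.

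The summed leukocyte miRNAs were higher in HSA. The leukocyte list (miR-142, miR-150, miR-155, miR-223, miR-342 and miR-363) summed to between 485.7 and 663 CPM in control and between 731 and 3862 CPM in HSA, so all 6 HSA libraries were above control. None of its members was at 0 throughout. Of the 6, 4 were called higher in HSA and 0 lower, beside 18.7% and 7.11% of all tested miRNAs. Their median log2 fold change was 2.21 beside 0.34 over all tested miRNAs. MiR-223, the myeloid miRNA, rose by 3.58 on the log2 scale (edgeR adjusted p = 0.000879), and miR-150, typical of mature lymphocytes, by 2.35 (edgeR adjusted p = 0.00765). MiR-342 and miR-363 were not called, with log2 fold changes of -0.44 and 0.55 (edgeR adjusted p = 0.170 and 0.132).

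These lists and the order of the libraries were set side by side after the values had been seen. MiR-181b had 506, 645 and 599 CPM in HSA replicates 2, 3 and 4, where the leukocyte sum was 3862, 2450 and 3694 CPM and the muscle sum 21821, 942 and 40090 CPM. It had 353, 343 and 373 CPM in HSA replicates 1, 5 and 6, where the leukocyte sum was 731, 934 and 1103 CPM and the muscle sum 190256, 94724 and 233009 CPM. The HSA libraries with more miR-181b than any control thus had the 3 highest leukocyte sums and the 3 lowest muscle sums of their group. They also had the 3 highest sums of the NF-kB and inflammation list given below. That sum was 72509, 113910 and 67682 CPM in HSA replicates 2, 3 and 4 and 62636, 28790 and 28408 CPM in replicates 1, 5 and 6. Most of it came from miR-21, with a mean of 51260 CPM in HSA, followed by miR-10a with 8214 CPM. The endothelial, epithelial, erythroid and smooth muscle and fibroblast sums did not divide the HSA libraries in this way. MiR-181a followed the same division, with 1957, 2384 and 2466 CPM in the first 3 libraries named and 1312, 1149 and 1273 CPM in the others. The part of leukocytes, inflammation or muscle in these levels was not tested.

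For miR-181c and miR-181d the division was another. MiR-181c had 81.2, 73.9, 31.1, 40.2, 60.4 and 47.7 CPM in HSA replicates 1 to 6, so that replicate 2, rich in leukocyte miRNAs, and replicate 1, poor in them, were both high. MiR-181d had 69.5, 75.0, 34.5, 46.6, 61.3 and 50.9 CPM in the same libraries.

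The place of HSA replicates 1, 5 and 6 below the control libraries depended on the scaling for miR-181b, and for miR-181a in all but replicate 6, which had 1041 deposited CPM against 1221 in the lowest control library. In deposited CPM, miR-181b had 335, 367 and 305 in these libraries against 294 to 347 in control, so that 2 of them were inside the control range and none below it. MiR-181b in HSA replicates 2, 3 and 4 was above every control library on both scales, with 932, 707 and 660 deposited CPM. MiR-181a was so in replicates 3 and 4, while replicate 2 was above control in deposited CPM and inside the control range in TMM CPM.

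**Figure D5:**
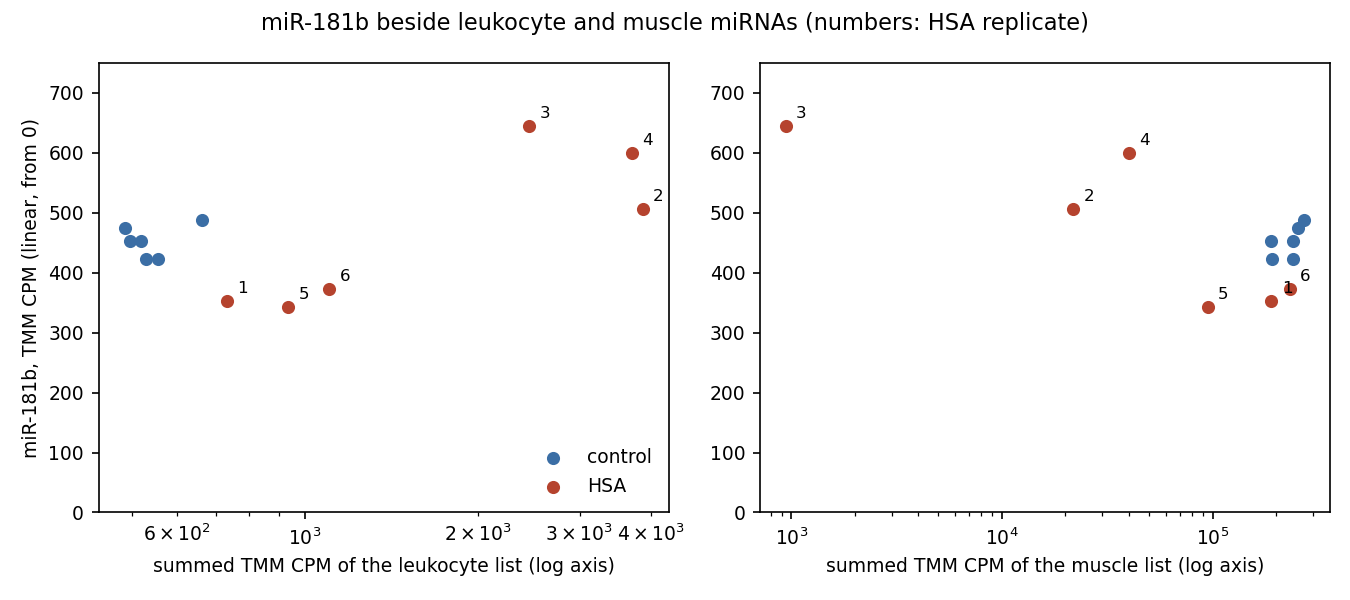
MiR-181b in TMM CPM (linear axis from 0) against the summed TMM CPM of the leukocyte list and of the muscle list (log axes), with a point per library and HSA points numbered by replicate. HSA replicates 2, 3 and 4 lie above the control points at leukocyte sums of 2450 to 3862 CPM, and replicates 1, 5 and 6 lie below them at 731 to 1103 CPM.

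MiRNAs linked to the NF-kB pathway and inflammation, in which miR-181b acts as a brake, were mostly higher in HSA, where the family was not called. The difference between this list and the family was not tested. This list of 8 held miR-146a, miR-146b, miR-155, miR-21, miR-10a, miR-31, miR-132 and miR-212, and miR-155 was also in the leukocyte list. Like the other lists it was chosen with earlier results of these data known, so its counts only describe it. Of the 8, 7 were called higher in HSA and 0 lower, beside 18.7% and 7.11% of all tested miRNAs. The median log2 fold change was 2.58 beside 0.34 over all tested miRNAs. MiR-146a, a feedback inhibitor of the pathway, rose by 2.63 in log2 (edgeR adjusted p = 0.00112) and miR-21 by 3.23 (edgeR adjusted p = 0.000485). MiR-31 was the exception, with a log2 fold change of -1.16 (edgeR adjusted p = 0.0487), which was not called. Of the endothelial list, miR-221 was called, with a log2 fold change of 1.11, while those of miR-222 and miR-126 were 0.95 and -0.45 and neither was called. The genes that these miRNAs repress were not measured in these libraries.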

How the data were processed

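Small RNA was measured in 12 cardiac FFPE libraries. Per the study's methods, the authors removed adapters (Cutadapt), mapped to the CanFam3.1 genome (Bowtie) and tallied reads on annotated miRNAs (HTSeq). The deposited tables hold raw counts for each pair of mature and precursor names. The deposited CPM are these counts over the library total, within 0.00499 CPM on recomputing. The labels name another library kit than the methods. Libraries were grouped by title.

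Entries identical in name and counts were merged (517 to 474). EdgeR 4.0.16 in R 4.3.3 (quasi-likelihood test, TMM, filterByExpr) tested 244 entries, and a mature miRNA takes the values of its highest entry. Standard errors (SE) were derived from the fold change and its F statistic. Ratios used counts plus 1 and an exact permutation test; profiles used log2 of CPM plus 0.5. The study's methods count the tumors by dog and the controls by tissue, and where control libraries share a dog p-values measure in part technical spread. DESeq2 1.42.0 and limma 3.58.1 served as alternatives, and the scripts were tested on simulated data. Summaries used Python 3.11.15 and scipy 1.17.1.

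The members, lists and thresholds were chosen with earlier results of these data known. Named were the members, the 3 nearest profiles outside the family for each, and up to 4 abundant members of each list; other list members, such as miR-31, miR-342 and miR-363, were named after their values were seen. No mature sequences were at hand, so none are shown. The gene table belongs to another assembly than the counts, so no coordinates are given.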

Additional observations from a re-analysis of the deposited data

Results flagged for a closer look

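MiR-181d in control replicate 1 stood apart from the other control libraries, with 70.1 CPM against 41.6 to 48.8 CPM in the other 5, a gap above the 95% limit of Dixon's test for 6 values. Of 24 groups of values examined in this way, this was the 1 that passed, and chance alone passes about 1 in 20. The library was also the highest control for miR-181c, with 68.3 CPM, and had the highest leukocyte sum of the controls, 663 CPM. Without it the log2 fold change of miR-181d was 0.29 (adjusted p = 0.338 from edgeR's test) in place of 0.17.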

How the results depend on the processing

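The number of members called was 0 under all 16 alternatives that kept every library and in all 12 fits that left 1 out. The signs of these near-zero values were not stable. The log2 fold change of miR-181a became 0.56 with library size only, 0.49 with limma on log2 of the deposited CPM plus 1 (0.492) or plus 10 (0.490), and 0.092 with counts thinned to the smallest library. That of miR-181b became -0.026 with DESeq2, -0.020 with median-of-ratios factors, -0.035 with TMM without the muscle list and -0.025 with 1 entry per mature name. That of miR-181c became -0.043 when its counts were summed with those of miR-181a. Leaving out 1 library gave from -0.42 to 0.023 for miR-181a, -0.26 to 0.12 for miR-181b, -0.12 to 0.38 for miR-181c and -0.13 to 0.29 for miR-181d, and the lowest value came without HSA replicate 4 for the first 2 and without HSA replicate 1 for the others. For the ratios it gave differences from -0.17 to -0.11, from 0.00085 to 0.17 and from -0.52 to -0.11, none of them called. The replicate numbers do not pair the dogs: the correlations of deviations within a number ran from -0.28 to 0.062, and 0 of 12 libraries correlated best with their own number. With the replicate block the members' log2 fold changes were -0.13, 0.0069, 0.21 and 0.15, and the sign-flip test could not call a single ratio, since its smallest p with 6 pairs, 0.0312, becomes 0.0938 over 3 ratios, the value it gave for miR-181a to miR-181b. Over all tested miRNAs the calls numbered 58 (42 higher, 16 lower), but 6 with the block, 24 to 65 with 1 library left out, 68 higher and 5 lower with library size only, and 53 higher and 5 lower with limma on CPM plus 1; the 24 came without control replicate 5. Thinned to equal depth, miR-181c had a log2 fold change of 0.50 with an interval from -0.10 to 1.10, about as wide as at full depth.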

Other observations

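Other marker lists give the setting in which the family was measured. Among the epithelial miRNAs (miR-141, miR-200a, miR-200b, miR-200c, miR-203, miR-205 and miR-429), 3 of 7 passed the filter and 2 were called higher in HSA, beside 18.7% of all tested miRNAs. The list summed to between 7.74 and 20.9 CPM in control and between 43.2 and 3285 CPM in HSA. Of the 4 erythroid miRNAs, miR-144 was called higher and miR-486-3p lower, beside 18.7% and 7.11% of all tested miRNAs. MiR-451 and miR-486, the most abundant of the list, had log2 fold changes of 0.81 and -1.33 and were not called. The erythroid sum was 22298 to 31727 CPM in control and 6042 to 47677 CPM in HSA. Of the smooth muscle and fibroblast list (miR-143, miR-145, miR-199 and miR-214), the log2 fold changes lay between -0.13 and 0.22 (edgeR adjusted p of 0.496 or more), with a median of -0.062 beside 0.11 for the miR-181 family. The 8 muscle miRNAs had a median log2 fold change of -1.24, and the lowest edgeR adjusted p among them was 0.0713, for miR-208b, so that no call was made for this list. That median is the value of miR-133a and miR-133c, which had almost equal counts and may share reads.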
